A study of Homo sapiens with 8 samples.

Results

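The 10 genes described here encode chemoattractant and metabolite-sensing receptors of neutrophils: FPR1, FPR2, C5AR1, C3AR1, CXCR2, CXCR4, PTAFR, FFAR2, P2RY13 and P2RY2. They were chosen by symbol, for what they encode, but with earlier results of these data known, so their shares called are descriptions. All 10 were found in each of the 8 count files, among 37526 gene names that the 8 files share. RNA was sequenced from NB4 cells, a human acute promyelocytic leukemia line that carries the PML/RARα fusion protein. The cells had been stably transduced with lentivirus, carrying either a short hairpin RNA against KDM3B, a JmjC-domain histone H3K9 demethylase (shKDM3B), or a control construct (shNC), which the labels call an empty vector and the methods a scrambled hairpin. Each kind of cell was sequenced without treatment and after 1 µM all-trans retinoic acid (shNC_ATRA, shKDM3B_ATRA), with 2 libraries in each of the 4 groups. The treatment is given as 24 or 48 h, and which libraries had which time is not stated. Which of the study's hairpins was sequenced is not stated either, so shKDM3B stands for cells carrying a hairpin in 1 cell line and not for loss of the gene. The comparisons ask how the receptors respond to ATRA, a drug that drives promyelocytic leukemia cells towards granulocytes, how they differ with KDM3B knockdown, and whether the response differs with knockdown.

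All these receptors cross the membrane 7 times and signal through heterotrimeric G proteins. In neutrophils most of them couple to Gi: the released Gβγ dimer activates phosphoinositide 3-kinase γ and phospholipase Cβ, and the cell polarizes, moves up the gradient and primes its oxidative burst. G protein-coupled receptor kinases, arrestins and RGS proteins then end the signal. Receptors for formylated bacterial peptides, complement fragments and chemokines appear on the surface as granulocytes mature, which is why they are used as signs of a functional neutrophil.

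The libraries held between 9708739 and 33017787 counts on genes, the 4 treated ones fewer than the 4 untreated ones. Of the reads that the counting tool considered, 8.49% to 9.62% fell outside genes in 5 libraries (the 4 untreated ones and shNC_ATRA replicate 1) and 50.02% to 51.45% in the other 3 treated ones. In shKDM3B cells this share therefore cannot be told apart from treatment. Which gene names are listed also differs between untreated and treated files, and this cannot be told apart from treatment in either kind of cell. KDM3B itself was at 187 and 188 CPM (counts scaled to a common library size, here by TMM over the 8 libraries) in shNC, 76.3 and 86.1 in shKDM3B, 196 and 121 in shNC_ATRA, and 52.4 and 57.3 in shKDM3B_ATRA, so each knockdown library was below each control library. Of 7 promyelocyte markers, MPO, which is made before granulocytes mature, was at 4329 and 5383 CPM (unscaled by TMM, as are the markers that follow) in shNC, 8348 and 9395 in shKDM3B, 705 and 575 in shNC_ATRA, and 3059 and 2142 in shKDM3B_ATRA. It was thus higher in each knockdown library than in each control library of the same stage. Of the other 6, CTSG was at 106 to 149 CPM untreated and 1.65 to 3.97 with ATRA, and ELANE, PRTN3 and AZU1 were near 0 throughout. CEBPE went the other way, from 51.7 to 74.9 CPM untreated to 413 and 313 in shNC_ATRA and 253 and 276 in shKDM3B_ATRA, and CD33 was at 63.6 to 76.5 CPM untreated and 82.1 to 107 with ATRA. MPO carried most of the sum, and the summed level of the 7 was 4550 to 9663 CPM untreated and 973 to 3406 with ATRA. Of 6 mature neutrophil markers, summed at 62.5 to 92.1 CPM in untreated and 237 to 475 in treated libraries, ITGAM and CSF3R carried almost the whole sum, and FCGR3B, MME, CEACAM8 and CXCR1 were at or near 0 even with ATRA. With ATRA, ITGAM was at 209 and 144 CPM in shNC_ATRA and at 102 and 102 in shKDM3B_ATRA, and CSF3R at 266 and 226 against 135 and 134. Untreated, ITGAM was at 20.7 and 26.2 CPM in shNC and 9.87 and 14.7 in shKDM3B, and CSF3R at 67.6 and 65.9 against 54.8 and 47.8. Both maturation markers were thus lower with knockdown at either stage, as were some of the receptors below, while P2RY2 was higher. The monocyte markers CD14 and FCGR3A were at most at 0.602 and 0.103 CPM in any library and CD163 was at 0. The 3 B cell markers summed to 3.65 to 5.16 CPM without and 13.3 to 22.5 with ATRA, with MS4A1 at 0. Of them CD79A was lower with knockdown, at 15.8 and 15.1 CPM in shNC_ATRA against 6.80 and 7.95 in shKDM3B_ATRA, and at 3.25 and 3.09 in shNC against 1.29 and 2.30 in shKDM3B. The 3 T cell markers summed to at most 1.44 CPM and the 3 fibroblast markers to at most 0.888, the 3 erythroid markers were at 0, and of the 3 epithelial markers only EPCAM was detected, at 12.6 to 19.0. The part of these markers in the results below was not tested.

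FFAR2, P2RY13, FPR1 and FPR2 were nearly silent in untreated cells and had the largest ATRA responses of the 10 in shNC cells, and their starts are shown for that reason. The RefSeq windows of GRCh38.p14 run from 250 bases before to 50 bases after the annotated transcription start, and 9 of the 10 receptors matched, with 13 starts in all. Capitals mark 3 letter motifs on either strand, none of which contains another: GAGGAA, at the core of PU.1/ETS sites, AGGTCA, the half-site of retinoid receptors, and TGAGTCA, the AP-1 site.
FFAR2 (chr19:35448007-35448306, plus strand): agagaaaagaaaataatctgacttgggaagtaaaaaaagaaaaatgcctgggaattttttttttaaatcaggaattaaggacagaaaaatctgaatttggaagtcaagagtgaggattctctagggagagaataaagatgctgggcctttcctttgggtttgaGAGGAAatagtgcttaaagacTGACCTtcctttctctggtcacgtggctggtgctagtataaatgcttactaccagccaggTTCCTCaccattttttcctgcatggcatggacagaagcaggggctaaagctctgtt
P2RY13 (chr3:151329500-151329799, minus strand): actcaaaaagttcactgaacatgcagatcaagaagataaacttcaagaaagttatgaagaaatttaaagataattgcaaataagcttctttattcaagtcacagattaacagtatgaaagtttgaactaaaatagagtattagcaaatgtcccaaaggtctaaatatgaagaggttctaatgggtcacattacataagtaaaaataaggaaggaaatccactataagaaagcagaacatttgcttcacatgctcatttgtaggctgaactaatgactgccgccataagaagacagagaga
FPR1 (chr19:51751829-51752128, minus strand): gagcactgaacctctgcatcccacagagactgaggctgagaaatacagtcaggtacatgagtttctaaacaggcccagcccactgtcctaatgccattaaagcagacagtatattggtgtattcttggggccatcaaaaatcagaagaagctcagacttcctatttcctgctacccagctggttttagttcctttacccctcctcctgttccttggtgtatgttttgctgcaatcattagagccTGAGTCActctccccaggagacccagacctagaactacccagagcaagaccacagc
FPR2 (chr19:51760930-51761229, plus strand, the first of its starts): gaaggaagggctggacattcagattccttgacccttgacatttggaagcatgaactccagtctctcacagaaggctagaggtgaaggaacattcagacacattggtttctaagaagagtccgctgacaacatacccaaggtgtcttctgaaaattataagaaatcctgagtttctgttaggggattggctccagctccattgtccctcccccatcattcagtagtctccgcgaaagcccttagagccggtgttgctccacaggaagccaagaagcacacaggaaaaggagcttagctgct
The FFAR2 window held 2 PU.1/ETS motifs and 1 retinoid half-site, the FPR1 window 1 AP-1 motif, and the windows of P2RY13 and FPR2 none of the 3. Of the 13 windows, 5 held the PU.1/ETS letters (C5AR1, CXCR4, FFAR2, PTAFR), 3 the retinoid half-site (C3AR1, FFAR2, PTAFR) and 3 the AP-1 letters (C3AR1, FPR1, PTAFR), and of all 35116 windows of this length 27.9%, 13.8% and 4.9% did. These matches describe the letters only.

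ATRA raised 8 of the 10 receptors in shNC cells and lowered P2RY2. A gene was called when edgeR's quasi-likelihood test gave an unadjusted P under 0.05 with a change of at least 1.5-fold, the thresholds of the study, and adjusted p-values are Benjamini-Hochberg values over all genes of the fit. Of 12429 genes tested, 15.0% were called higher and 10.8% lower, and at an adjusted p under 0.05 7.84% and 5.06%. The same 8 receptors and P2RY2 passed at either threshold. C3AR1 did not pass. The same 9 calls were made without shNC_ATRA replicate 2, when the treated library left has the low share of reads outside genes of the untreated ones, and 1671 genes were called higher and 1512 lower of 12908. In such fits a lone library is assumed to vary like those of the other group. In shKDM3B cells, 8 receptors had enough counts to be tested, of which CXCR2, PTAFR, FFAR2 and P2RY13 were called higher and C3AR1 and P2RY2 lower, at either threshold. Among 12756 genes tested there, 24.0% were called higher and 18.3% lower, 42.2% in all (23.0% and 17.3% adjusted). FPR1, FPR2 and P2RY13 had at most 7 counts in any untreated library. In shNC cells they entered the test through the treated libraries, in which they were high, and so could only be called higher. The same holds for FFAR2 and P2RY13 in shKDM3B cells. Without genes of this kind, 5 of 7 receptors were called higher and 1 lower in shNC cells, where 13.6% and 9.57% of 11851 genes were. In shKDM3B cells 2 of 6 were called higher and 2 lower, where 18% and 17.8% of 11406 genes were. The labels do not say that the libraries of a group came from separate cultures, so the p-values measure the spread between libraries, which may be technical. In bulk RNA, fewer cells with a transcript and less transcript per cell cannot be told apart.

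In untreated cells, knockdown was accompanied by calls in both directions. Of the 7 receptors with enough counts, C3AR1 and P2RY2 were called higher and PTAFR and FFAR2 lower, where 3.48% of 13855 genes were called higher and 3.53% lower. FFAR2 entered this test through the shNC libraries, in which it was higher, and so could only be called lower. Without genes of this kind, 2 of 6 receptors were called higher and 1 lower, where 3.2% and 3.1% of 13626 genes were. At an adjusted p under 0.05, edgeR called 0 of the 7, against 4 at the unadjusted threshold, and 0.0217% of all genes, each of them lower. DESeq2 called PTAFR (adjusted p = 3.49e-05), where it called 0.902% of genes lower and 1.10% higher. With a term for replicate number, edgeR called 2 receptors higher and 1 lower at an adjusted p under 0.05, as it did 428 and 352 genes. That setting was added after seeing the data. With ATRA, 4 of 10 receptors (FPR1, CXCR4, FFAR2 and P2RY13) were called lower in knockdown cells and 0 higher, where 4.37% of 14281 genes were called lower and 2.42% higher. FPR1 and FPR2 entered this test through the shNC_ATRA libraries, in which they were higher, and so could only be called lower. Without genes of this kind, 3 of 8 receptors were called lower and 0 higher, where 4.11% and 2.09% of 13843 genes were. At an adjusted p under 0.05, edgeR called 0 of the 10, while DESeq2 called CXCR4, FFAR2 and P2RY13, with adjusted p-values of 0.00685, 0.000873 and 1.98e-16, where it called 1.65% of genes lower and 0.847% higher. Both shKDM3B_ATRA libraries lay below both shNC_ATRA libraries for 9 of the 10 receptors, and above them for P2RY2, as was so for 26.0% and 24.1% of 12227 tested genes listed in all 8 files. Without shNC_ATRA replicate 1, which leaves the 3 treated libraries with like shares outside genes, 8 receptors were called lower and 1 higher, as were 1205 and 1291 genes in all. Without shKDM3B_ATRA replicate 1, only FFAR2 and P2RY13 were called, both lower, as were 94 genes of 15069, with 40 higher.

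The response to ATRA itself was compared between shKDM3B and shNC cells with the interaction term of 1 edgeR fit over the 8 libraries. Larger and smaller are meant as signed log2 values here and below. The response of PTAFR was larger in knockdown cells and those of CXCR4, C3AR1 and C5AR1 smaller. For C3AR1 this was a fall in shKDM3B cells, with no called response in shNC cells. Of 13528 genes, 1.27% had a larger and 2.72% a smaller response, 3.99% in all. These shares are 172 and 368 genes, and scaling by library size alone gave 234 and 279. At an adjusted p under 0.05, edgeR called 0 of the 10 (4 unadjusted), and DESeq2 called PTAFR and CXCR4, where it called 0.0591% of genes larger and 0.126% smaller. The responses in both kinds of cell are set side by side below for each receptor.

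**Figure D1:**
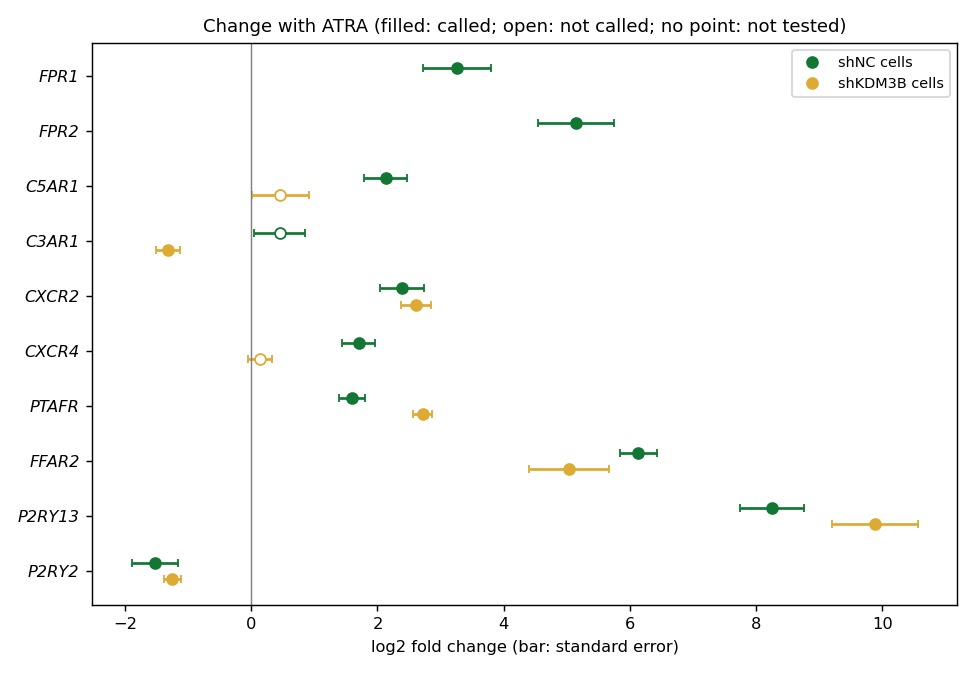
Log2 fold change with ATRA for each receptor, from edgeR, in shNC cells (green) and in shKDM3B cells (yellow). Points are the fitted values and bars their standard errors. Filled points were called, open ones were not, and FPR1 and FPR2 have no yellow point since they were not tested in shKDM3B cells. The yellow P2RY13 point is set against libraries with 0 counts and depends on the prior count, so it is no measure of size.

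FPR1 and FPR2 recognize formylated peptides from bacteria and mitochondria, and FPR2 also binds annexin A1, serum amyloid A and the cathelicidin peptide LL-37. The FPR2 gene lies within the span of FPR1 on the opposite strand (hg38, chr19:51745172-51804115, minus strand, for FPR1, and chr19:51752026-51770531, plus strand, for FPR2), and their exons do not overlap. FPR1 had 5 and 7 raw counts in shNC, 36 and 33 in shNC_ATRA, 0 and 2 in shKDM3B, and 0 and 3 in shKDM3B_ATRA. FPR2 had 2 and 2 counts in shNC, 47 and 43 in shNC_ATRA, 0 and 3 in shKDM3B, and 0 and 6 in shKDM3B_ATRA. Both receptors were thus well detected only in control cells given ATRA, and no library of another group came near that pair.

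With ATRA, FPR1 rose in shNC cells from 0.272 ± 0.030 to 2.62 ± 0.59 CPM (SD, n = 2), a log2 fold change of 3.26 (SE 0.54, adjusted p = 0.00904). FPR2 went from 4 counts to 90 over the shNC pairs, a 34.2-fold higher share of counts with a 95% exact interval of 12.9 to 128 that covers counting error only (log2 fold change 5.15, SE 0.61, adjusted p = 0.00226). In shKDM3B cells FPR2 had 3 counts without and 6 with ATRA (5.24-fold, interval 1.12 to 32.4), and FPR1 was at or under 3 counts in each library, where no fold can be given. In treated cells, FPR1 was called lower with knockdown, with 69 counts over the shNC_ATRA pair against 3, a 16.2-fold lower share (interval 5.30 to 80.3, log2 fold change -4.00, SE 1.22, adjusted p = 0.502 in edgeR). This call was lost without shKDM3B_ATRA replicate 1 (log2 fold change -3.07), and without replicate 2 the remaining knockdown library was at 0. For FPR2 the edgeR log2 fold change was -3.44 (SE 1.37, adjusted p = 0.533), not called but past the threshold without either shNC_ATRA library and without shKDM3B_ATRA replicate 2. The FPR2 value was -2.48 without replicate 1 of that group. In untreated cells FPR1 had 12 counts over the shNC pair and 2 over the shKDM3B pair, a 7.26-fold lower share (interval 1.62 to 66.8), too few to enter the edgeR test.

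C5AR1 and C3AR1 bind the complement fragments C5a and C3a. C5a is among the strongest neutrophil chemoattractants, whereas C3a acts more on mast cells, eosinophils and monocytes. C5AR1 (chr19:47290023-47322066, plus strand) was at 3.46 and 2.60 CPM in shNC and at 12.3 and 13.6 in shNC_ATRA. In knockdown cells it was at 3.29 and 3.47 CPM untreated and at 2.21 and 6.73 with ATRA. The knockdown libraries thus began at the control level, and with ATRA 1 of them was below and 1 above their untreated pair. C5AR1 rose with ATRA in shNC cells (log2 fold change 2.13, SE 0.35, adjusted p = 0.00827). In shKDM3B cells the log2 fold change was 0.46 (SE 0.45, adjusted p = 0.418). It was called, at 1.03, without shKDM3B_ATRA replicate 1 and stood at -0.58 without replicate 2. The response was smaller in knockdown cells by an interaction of -1.69 (SE 0.69, adjusted p = 1.00), a call kept in 3 of 8 fits that each left out a library (-1.07 without shKDM3B_ATRA replicate 1 and -2.70 without replicate 2). Knockdown alone gave 0.16 (SE 0.31) in untreated and -1.53 (SE 0.64, adjusted p = 0.538) in treated cells, neither of them called by edgeR, while DESeq2's unadjusted test called the latter (adjusted p = 0.385). In edgeR it ranged from -2.54 without shKDM3B_ATRA replicate 2 to -0.935 without replicate 1, and it was called in 3 of 4 fits that each left out a library, all but that without shKDM3B_ATRA replicate 1.

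C3AR1 (chr12:8056844-8066359, minus strand) went another way. It was at 7.93 and 16.2 CPM in shNC and 13.1 and 19.1 in shNC_ATRA, pairs that overlapped, with a log2 fold change of 0.45 (SE 0.41, adjusted p = 0.530). It was at 24.1 and 23.2 CPM in shKDM3B and at 8.42 and 9.94 in shKDM3B_ATRA. The knockdown cells thus had the highest group mean before ATRA and the lowest after it, although the latter pair overlapped that of untreated shNC cells. In shKDM3B cells C3AR1 fell with ATRA (log2 fold change -1.31, SE 0.19, adjusted p = 0.000399), and the response differed from that of shNC cells by -1.78 (SE 0.51, adjusted p = 1.00), called in 8 of 8 fits that each left out a library (-2.39 without shNC replicate 2). Before ATRA it was called higher with knockdown at the unadjusted threshold, by 0.97 (SE 0.31, adjusted p = 0.322). The shNC libraries lay apart, and the value was 0.55 and not called without shNC replicate 1, and 1.58 without replicate 2. With ATRA the knockdown difference was -0.80 (SE 0.31, adjusted p = 0.523), and it was -1.04 and called without shNC_ATRA replicate 1.

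CXCR2 and CXCR4 receive chemokines with opposite effects on the neutrophil's place. CXCR2 binds CXCL8 and related chemokines and draws neutrophils out of the marrow and into inflamed tissue, and CXCR4 binds CXCL12 and holds immature and aged cells in the marrow. CXCR2 (chr2:218125289-218137251, plus strand) was at 5.27 and 3.48 CPM in shNC, 19.6 and 25.3 in shNC_ATRA, 2.82 and 2.76 in shKDM3B, and 16.6 and 16.4 in shKDM3B_ATRA. Treated and untreated libraries were far apart in both kinds of cell, and the knockdown libraries were the lower ones at either stage. CXCR2 rose with ATRA by 2.39 in shNC cells (SE 0.35, adjusted p = 0.00517) and by 2.61 in shKDM3B cells (SE 0.24, adjusted p = 1.86e-05) on the log2 scale. The responses differed by 0.20 with an SE of 0.38, and between -0.13 and 0.47 with each library left out. Knockdown differences of -0.64 (SE 0.32, adjusted p = 0.580) untreated and -0.44 (SE 0.23, adjusted p = 0.592) with ATRA were not called, although the pairs did not overlap. They passed without shNC replicate 2 (-0.91) and without shNC_ATRA replicate 1 (-0.60).

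CXCR4 (chr2:136114349-136119177, minus strand), the most abundant of the 10 per kilobase in shNC cells, was at 43.6 and 38.8 CPM in shNC and 105 and 157 in shNC_ATRA. In knockdown cells it stood at 43.7 and 47.1 CPM untreated and at 38.3 and 58.1 with ATRA. The 6 libraries other than shNC_ATRA thus lay between 38.3 and 58.1 CPM, and ATRA lifted CXCR4 above it in control cells. The log2 fold change with ATRA was 1.71 in shNC cells (SE 0.26, adjusted p = 0.00651) and 0.14 in shKDM3B cells (SE 0.20, adjusted p = 0.578). The responses differed by -1.58 (SE 0.36, adjusted p = 1.00), called in 8 of 8 fits that each left out a library. With ATRA, CXCR4 was lower in knockdown cells by a log2 fold change of -1.44 (SE 0.33, adjusted p = 0.502 in edgeR). Without shKDM3B_ATRA replicate 1 it was -1.16 and not called. In untreated cells the knockdown difference was 0.14 (SE 0.16).

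PTAFR (chr1:28147166-28193936, minus strand) encodes the receptor for platelet-activating factor, a phospholipid that primes neutrophils. It was at 35.7 and 35.4 CPM in shNC and 16.0 and 15.3 in shKDM3B, the tightest separation by knockdown among the untreated libraries. After ATRA it was at 106 and 104 CPM in shNC_ATRA and 104 and 94.2 in shKDM3B_ATRA. The knockdown cells thus began lower and ended near the control level. In untreated cells PTAFR was lower with knockdown, with a log2 fold change of -1.18 (SE 0.18, adjusted p = 0.105 in edgeR), called in 4 of 4 fits that each left out a library, at -1.22 to -1.16. With ATRA the difference was -0.08 (SE 0.12), between -0.15 and -0.0021 with each library left out. PTAFR rose with ATRA by 1.60 in shNC cells (SE 0.20, adjusted p = 0.00305) and by 2.72 in shKDM3B cells (SE 0.15, adjusted p = 6.55e-07). The difference of 1.10 (SE 0.18, adjusted p = 0.962) was the interaction with the lowest P of the 10, and it was called in 8 of 8 fits that each left out a library.

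FFAR2 (chr19:35443907-35451767, plus strand) encodes the receptor by which neutrophils sense acetate, propionate and butyrate, the short-chain fatty acids made by gut bacteria. It was at 0.652 and 0.629 CPM in shNC, at 43.2 and 45.4 in shNC_ATRA, at 0.103 and 0.245 in shKDM3B, and at 3.16 and 9.14 in shKDM3B_ATRA. In shNC cells the mean rose 69.2-fold, and the pair of treated knockdown libraries lay between the untreated and the treated control pairs. The log2 fold change with ATRA was 6.13 in shNC cells (SE 0.30, adjusted p = 0.000135) and 5.04 in shKDM3B cells (SE 0.63, adjusted p = 0.000167), the latter 5.83 without shKDM3B replicate 2 and 4.06 without shKDM3B_ATRA replicate 2. The responses differed by -1.10 with an SE of 0.85, which was not called, but passed without shKDM3B_ATRA replicate 2 (-2.06), and it was -0.50 without replicate 1 of that group and -0.24 without shKDM3B replicate 2. With ATRA, FFAR2 was lower in knockdown cells (log2 fold change -2.84, SE 0.61, adjusted p = 0.502 in edgeR), called in 4 of 4 fits that each left out a library (-3.80 without shKDM3B_ATRA replicate 2). In untreated cells it had 13 and 15 counts in shNC and 2 and 8 in shKDM3B. The call there, at -1.75 (SE 0.63, adjusted p = 0.383), was lost without shNC replicate 1 (-1.73), shNC replicate 2 (-1.78) or shKDM3B replicate 1 (-1.37), and was -2.58 without shKDM3B replicate 2. DESeq2 did not call it.

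P2RY13 and P2RY2 sense nucleotides that leak from stressed cells. P2RY13 is a Gi-coupled receptor for ADP, and P2RY2 a Gq-coupled receptor for ATP and UTP that amplifies the response of neutrophils to other chemoattractants. P2RY13 (chr3:151326312-151329549, minus strand) lies within MED12L without overlap of exons. It had 1 and 6 counts in shNC and 0 and 0 in shKDM3B, and 700 and 601 in shNC_ATRA against 60 and 65 in shKDM3B_ATRA. In CPM, the treated pairs were at 42.9 and 55.4 in shNC_ATRA and at 6.32 and 6.53 in shKDM3B_ATRA. ATRA thus switched the gene on in both kinds of cell, to a level that was 7.65-fold lower in knockdown cells. In shNC cells the log2 fold change was 8.25 (SE 0.50, adjusted p = 0.000194), resting on 7 untreated counts and ranging from 7.57 without shNC replicate 1 to 9.74 without replicate 2. In shKDM3B cells, set against 3 counts per untreated library, P2RY13 was at least 50.9-fold higher with ATRA (adjusted p = 8.07e-06 in edgeR). With ATRA it was lower in knockdown cells, with a log2 fold change of -2.93 (SE 0.23, adjusted p = 0.502 in edgeR), which was called in 4 of 4 fits that each left out a library, at -3.10 to -2.74. The interaction, 1.62 with an SE of 0.94 (0.030 without shNC replicate 2 and 2.25 without replicate 1), was not called and is set against the same libraries with 0 counts.

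P2RY2 (chr11:73218281-73242427, plus strand) was the receptor that fell in both kinds of cell. It was at 84.4 and 120 CPM in shNC and at 46.6 and 22.3 in shNC_ATRA, and at 143 and 166 in shKDM3B and 66.0 and 59.5 in shKDM3B_ATRA. Each knockdown library was above each control library at the same stage, and each treated library below each untreated one. P2RY2 fell with ATRA by 1.53 in shNC cells (SE 0.37, adjusted p = 0.0362) and by 1.25 in shKDM3B cells (SE 0.14, adjusted p = 6.61e-05) on the log2 scale, responses that differed by 0.25 with an SE of 0.47 (0.89 and called without shNC_ATRA replicate 1). In shNC cells the value was -1.27 and not called without shNC replicate 2, and -2.16 without shNC_ATRA replicate 1. In untreated cells P2RY2 was called higher with knockdown at the unadjusted threshold, by 0.60 (SE 0.19, adjusted p = 0.322), a call lost without shNC replicate 1 (0.38) or shKDM3B replicate 2 (0.48). With ATRA the difference was 0.86 (SE 0.42, adjusted p = 0.570), and it was 1.502 and called without shNC_ATRA replicate 1 and 0.43 without replicate 2. Of the exons of P2RY2, 37.54% overlap those of ENSG00000260401 on the same strand, and reads there would count for neither gene where an annotation holds both.

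The order of the receptors by level per kilobase of exon changed with ATRA. In shNC cells, CXCR4 (14.2 CPM per kilobase), P2RY2 (11.4) and PTAFR (8.44) led, followed by C3AR1 (3.45), CXCR2 (1.36) and C5AR1 (1.02), and then by FFAR2, FPR1, P2RY13 and FPR2, each under 0.3. The pairs of libraries of CXCR2 and C5AR1 overlapped, as did those of P2RY13 and FPR2. In shNC_ATRA, CXCR4 (45.1) and PTAFR (24.9) led, and FFAR2 (20.2) and P2RY13 (17.8), which overlapped each other, came next. CXCR2 (6.98) followed, then C3AR1, C5AR1 and P2RY2, each overlapping its neighbour, and last FPR1 and FPR2, which overlapped. In shKDM3B_ATRA, PTAFR (23.6) stood first and CXCR4 (16.6) second, P2RY2 (7.01) and CXCR2 (5.13) came next, and the FFAR2 pair (mean 2.80) overlapped those of C3AR1 (2.63), P2RY13 (2.32) and C5AR1 (1.51). FPR2 and FPR1, which overlapped each other, came last. In shKDM3B, P2RY2 (17.3) and CXCR4 (15.6) overlapped, C3AR1 (6.79) stood above PTAFR (3.72), and C5AR1 (1.14) above CXCR2 (0.869). FFAR2, FPR2, FPR1 and P2RY13 closed that order, each under 0.1, and the FPR1 pair overlapped those of FPR2 and P2RY13. FFAR2 and P2RY13 thus moved from the lower part of the order to just below PTAFR in control cells, and only part of the way in knockdown cells.

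For each receptor, the protein-coding gene with the most similar pattern was found by the root mean square difference of log2(CPM + 0.5), centred on each gene's own mean over the 8 libraries, among 10902 genes. The 8 libraries share treatment and knockdown, so a small distance is a description. It was 0.137 for FPR1 and CLEC17A, 0.181 for FPR2 and NAPSA, and 0.267 for C5AR1, whose nearest gene was another of the 10, CXCR4. It was 0.171 for CXCR2 and GAPT, 0.174 for CXCR4 and SMPDL3A, 0.191 for PTAFR and WSB2, and 0.153 for P2RY2 and GPR161. For C3AR1 (NOL3), P2RY13 (MMP8) and FFAR2 (TOGARAM2) it was 0.272, 0.321 and 0.379. Adding 0.5 compresses genes near 0 CPM, such as FPR1 and FPR2, so the distances of different receptors are not comparable. MMP8, the neutrophil collagenase, went from 0.159 CPM in shNC to 40.2 in shNC_ATRA and 9.44 in shKDM3B_ATRA, beside 0.151, 49.1 and 6.42 for P2RY13.

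The genes around the receptors were read from 4 lists: 35 related receptors, 24 ligands and enzymes that make or clear them, 27 transducers of the signal and 14 genes that end it. With ATRA in shNC cells, 12 of 19 related receptors tested were called higher and 1 lower, with a median log2 fold change of 1.34 beside 0.02 over all genes tested and 2.26 over the 10 receptors. Of 26 transducers, 13 were called higher and 1 lower (median 0.55), of 13 ligand genes 5 and 1 (0.19), and of 14 terminators 4 and 1 (0.50), where 15.0% of all genes were called higher and 10.8% lower. In shKDM3B cells the same counts were 11 higher and 3 lower of 17 related receptors, 11 and 2 of 25 transducers, 4 and 2 of 12 ligand genes and 5 and 2 of 14 terminators, with medians of 0.92, 0.52, 0.28 and 0.30 beside 0.04 over all genes, of which 24.0% were called higher and 18.3% lower. With knockdown under ATRA, 7 of 17 related receptors were called lower and 0 higher (median -0.64 beside 0.03 over all genes), and 3 of 26 transducers were lower (-0.11). There, 1 of 12 ligand genes was lower (0.0034), and 3 of 14 terminators were lower and 1 higher (-0.47), where 4.37% of all genes were lower and 2.42% higher. The genes called lower there include FFAR3, the transducer gene PIK3R6 and the 1 ligand gene, CAMP, which reached the count minimum of the filter in both shNC_ATRA libraries and in neither shKDM3B_ATRA library, and so could only be called lower. Without genes that reached it in 1 group alone, 6 of 16 related receptors, 2 of 25 transducers, 0 of 11 ligand genes and 3 of 14 terminators were lower, where 4.11% of 13843 genes were. Among the calls with ATRA, 3 related receptors higher and 1 ligand gene in each direction were of this kind in shNC cells, as were 1 related receptor in each direction, 1 transducer higher and 1 ligand gene lower in shKDM3B cells. In untreated cells, knockdown gave 2 higher and 3 lower of 18 related receptors, 5 lower of 25 transducers, 1 higher and 1 lower of 12 ligand genes, and 2 lower of 14 terminators, where 3.48% of all genes were higher and 3.53% lower. None of these knockdown calls passed at an adjusted p under 0.05. The interaction called 2 of 21 related receptors smaller, 1 of 26 transducers larger, 2 ligand genes larger and 1 smaller of 13, and 0 of 14 terminators, where 1.27% of all genes had a larger and 2.72% a smaller response.

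Among the related receptors, GPR35, a receptor for tryptophan metabolites and other small acids, rose with ATRA in shNC cells from 5.28 ± 0.70 to 48.8 ± 1.3 CPM (SD, n = 2, log2 fold change 3.24, adjusted p = 0.000386). With ATRA it was lower in knockdown cells, at 28.5 ± 1.9 CPM (log2 fold change -0.77, adjusted p = 0.502 in edgeR). FFAR3, the other short-chain fatty acid receptor, had 0 counts in each untreated library, 27 and 13 in shNC_ATRA and 1 and 4 in shKDM3B_ATRA. Against 3 counts per library it was at least 9.74-fold higher with ATRA in shNC cells, and with ATRA it was called lower in knockdown cells (adjusted p = 0.514), a test it entered through the shNC_ATRA libraries, in which it was higher, so that it could only be called lower. FFAR3 has a near-identical copy, GPR42, with which reads may be split. P2RY8, which restrains B cell migration, fell in shNC cells by 1.90 at the unadjusted threshold (SE 0.55, adjusted p = 0.0694).

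Of the ligands, CXCL8, which acts on CXCR2, rose with ATRA in shNC cells from 10.3 ± 2.3 to 135 ± 81 CPM (log2 fold change 3.76, adjusted p = 0.00276). In knockdown cells CXCL8 was called higher before ATRA (29.5 ± 3.4 CPM, log2 fold change 1.52, adjusted p = 0.105), and its response was smaller, by an interaction of -2.90 (SE 0.90, adjusted p = 1.00). CAMP, which encodes the precursor of LL-37, rose from 0.209 to 1.92 CPM in shNC cells (adjusted p = 0.0128) and was called lower with knockdown under ATRA (0.462 CPM, adjusted p = 0.502). With at most 5 counts in any library outside shNC_ATRA, CAMP entered both tests through that pair, which fixed the direction of both calls. CXCL2, another ligand of CXCR2, fell from 0.737 to 0.153 CPM in shNC cells at the unadjusted threshold (adjusted p = 0.120). With 11 and 22 counts before and 2 and 2 after ATRA, it entered that test through the untreated libraries and could only be called lower.

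Of the transducers, the Src-family kinase FGR had the largest rise, from 65 and 43 to 9033 and 4736 counts in shNC cells (log2 fold change 7.65, SE 0.39, adjusted p = 0.000135). FGR was called lower with knockdown before (-2.44, SE 0.47, adjusted p = 0.129) and after ATRA (-1.13, SE 0.21, adjusted p = 0.502), and its response was larger in knockdown cells by 1.29 (adjusted p = 1.00). FGR belongs to a signature that the study chose on these samples, so its direction is not independent evidence. GNG2, a Gγ subunit, rose by 5.01 in shNC cells (SE 0.29, adjusted p = 0.000166) and was called lower with knockdown before and after ATRA (-1.13 and -0.61, adjusted p = 0.223 and 0.502). GNA15, the α subunit that couples many receptors to phospholipase C, fell in shNC cells with a log2 fold change of -1.51 (SE 0.26, adjusted p = 0.0108). Antisense genes overlap 7.51% of the exons of GNG2 and 5.81% of those of GNA15, and the library kit named does not mark strand.

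Of the genes that end the signal, the GTPase-activating proteins RGS2 and RGS1 rose in shNC cells by 3.90 and 3.50 on the log2 scale (adjusted p = 0.00112 and 0.00239), and RGS16 fell from 37.9 ± 19.7 to 4.96 ± 1.46 CPM (log2 fold change -2.91, adjusted p = 0.00620). With knockdown under ATRA, RGS2 (-1.29), RGS1 (-1.06) and the arrestin ARRB2 (-0.73) were called lower, and the receptor kinase GRK3 higher (0.89, SE 0.24), with adjusted p-values of 0.502 to 0.508 in edgeR. ARRB2 had been called higher with ATRA in shNC cells (0.59, adjusted p = 0.137). In shKDM3B cells ATRA raised GRK3 by 0.80 (adjusted p = 0.00245) and lowered ARRB1, the other arrestin, with a log2 fold change of -0.64 (adjusted p = 0.00366).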

How the data were processed

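RNA-seq was performed on 8 libraries of NB4 cells in 4 groups, and the groups were taken from the sample titles. The authors deposited raw read counts per gene, made with HTSeq on hg38 alignments by HISAT2 per the labels, with RefSeq refFlat gene models per the methods; DESeq2, named in the labels too, was not needed to read the counts. The untreated files list 56470 names and the treated ones 56609, of which 18944 stand only in the untreated and 19083 only in the treated files. Comparisons across treatment used the 37526 names shared by the 8 files, which hold the same 10 receptors. Whether the same exons were counted under a shared name is not stated. A difference in counting cannot be told apart from a response to ATRA. The 5 summary lines of HTSeq were left out of library sizes. The share outside genes is taken over the reads on, outside and ambiguous between genes.

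Counts were tested with edgeR 4.0.16 (R 4.3.3), using filterByExpr, TMM and the quasi-likelihood F test, pair by pair, with an interaction over the 8 libraries, 5 comparisons in all. DESeq2 1.42.0 was an alternative. Standard errors are the log2 fold change divided by the root of F. Intervals on ratios of counts are exact at 95% and, like the floor of 3 counts (0.0909 to 0.309 CPM per library), cover counting error only; PCR reads without molecular identifiers are not independent molecules. An exact permutation test of 2 libraries against 2 cannot go below a two-sided p of 0.333, so none was used. The fits were tested on simulated data. Alternatives were other scalings, filters, tests, thresholds, a replicate block and leaving out each library.

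The receptors and lists were chosen with earlier results of these data known. A marker gene of the lists is not reported here. Named were the 10 receptors throughout, KDM3B, the nearest gene of each receptor with a mean of at least 10 counts per library, per list and direction the 2 genes with the largest change among those called with ATRA in shNC cells, and GRK and arrestin genes where called. Coordinates and exon lengths are from GENCODE on hg38, and promoter sequences from RefSeq on GRCh38.p14.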

Additional observations from a re-analysis of the deposited data

Results flagged for a closer look

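The response to ATRA differed between shKDM3B and shNC cells for 4 of the 10 receptors by edgeR's interaction test at an unadjusted P under 0.05 and at least 1.5-fold. On the log2 scale, the response in knockdown cells minus that in control cells was -1.6874 for C5AR1, -1.7781 for C3AR1, -1.5818 for CXCR4 and 1.1007 for PTAFR. Adjusted over 13528 genes, p was 1.00 for the first 3 and 0.962 for PTAFR, and DESeq2 gave adjusted p-values under 0.05 for CXCR4 and PTAFR. The differences had different shapes in the levels. PTAFR was lower with knockdown before ATRA (15.7 against 35.5 CPM) and near the control after it (99.2 against 105). C3AR1 was higher before (23.7 against 12.1) and lower after (9.18 against 16.1), and CXCR4 and C5AR1 were level before and lower after. The shares of reads outside genes move with these groups, since 1 of the 2 shNC_ATRA libraries has the low share of the untreated ones. The part of these shares in the interactions was not tested. The C5AR1 call was lost in 5 of the 8 fits that each left out a library, and those of C3AR1, CXCR4 and PTAFR in 0.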

How the results depend on the processing

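The knockdown calls were less stable than the ATRA calls. There were 2 libraries a group, shNC_ATRA replicate 1 stood apart in its reads outside genes, and FPR1, FPR2 and P2RY13 had a handful of counts before ATRA. With ATRA in shNC cells, the number of receptors called higher was 8 under every alternative, and the 1 called lower became 0 without shNC replicate 2 (leaving out 1 library: 0 to 1). With ATRA in shKDM3B cells both counts stayed within 1.5 times of 4 and 2. Of the knockdown comparison in untreated cells, the 2 called higher became 1 with library size alone, with upper-quartile scaling and with all 8 libraries in 1 fit, 0 at an adjusted p in edgeR or DESeq2, and 0 to 2 leaving out 1 library; the 2 called lower became 0 at an adjusted p, 1 with DESeq2 at either threshold, and 1 to 2 leaving out 1 library. Of that with ATRA, the 0 called higher became 1 with all 8 libraries in 1 fit and 0 to 1 leaving out 1 library, and the 4 called lower became 0 at an adjusted p and 2 to 8 leaving out 1 library. Of the interaction, 1 larger and 3 smaller became 0 and 0 at an adjusted p, with 1 smaller at an adjusted p in DESeq2, and 1 to 2 larger and 2 to 5 smaller leaving out 1 library. The causes were not tested.

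Of the log2 fold changes of single receptors under all alternatives, 643 kept direction and side of the threshold, 47 lost and 23 gained the call, and 9 turned sign, none of them called in either fit. With ATRA, C3AR1 was -0.0049 in shNC cells without shNC replicate 1 (1.0421 at most, leaving out another library), and C5AR1 and CXCR4 were -0.582 and -0.216 in shKDM3B cells without shKDM3B_ATRA replicate 2 (at most 1.0257 and 0.3901). With knockdown in untreated cells C5AR1 was -0.0297 without shNC replicate 2 (at most 0.3789). Interactions that turned were 1.1253 for FPR1 and 0.2066 for FPR2 without shKDM3B replicate 2 (-5.9335 and -8.3166 against a lone library at 0), -0.1251 for CXCR2 without shNC replicate 1 (at most 0.4686), and -0.024 and -0.1825 for P2RY2 without shNC replicate 2 and shNC_ATRA replicate 2 (at most 0.893). Over all genes, leaving out shNC_ATRA replicate 2 gave 3409 higher and 1951 lower knockdown calls with ATRA in place of 345 and 624, and leaving out shKDM3B_ATRA replicate 1 gave 40 and 94. With all 8 libraries in 1 fit the calls were 313 and 365 in place of 482 and 489 untreated, and 505 and 929 with ATRA.

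The replicate numbers are not stated to mark a shared batch, so same-numbered libraries were not treated as pairs. Their deviations had correlations of -0.0913 and 0.210 for ATRA in shNC and shKDM3B cells, and of 0.424 and 0.0328 for knockdown without and with ATRA. Same-numbered untreated libraries thus did deviate together, and the calls of that comparison changed with the block, as given next. With the replicate block, 8 receptors were higher and 1 lower with ATRA in shNC cells, 4 and 2 in shKDM3B cells, 2 and 3 with knockdown untreated, 0 and 3 with knockdown under ATRA, and 1 and 2 in the interaction. Over all genes the same counts were 1649 and 1231, 3089 and 2356, 614 and 628, 179 and 346, and 167 and 371, in place of 1866 and 1347, 3058 and 2328, 482 and 489, 345 and 624, and 172 and 368. It ended the calls of FPR1 under ATRA and of the C5AR1 interaction, and added CXCR2 untreated. At an adjusted p with the block, added after seeing the data, as were the adjusted p of DESeq2 and the fit on names common to the 8 files, the last 3 were 2 and 1, 0 and 0, and 0 and 0 receptors, and 428 and 352, 0 and 0, and 0 and 0 of all genes.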
